A study of Mus musculus with 12 samples.

Results

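The question was whether the left ventricle responded differently to myocardial infarction (MI) when the long noncoding RNA Miat was missing. All 12 arrays of the series entered it, and the quantity measured was the MI effect in the knockout (knockout MI minus knockout sham) minus the MI effect in wild type (wild-type MI minus wild-type sham). This difference is negative where the knockout effect is lower than the wild-type effect, and positive where it is higher. The mice were male C57BL/6J, wild type or carrying a systemic Miat knockout, so the gene was missing from every cell type and not from heart muscle alone. Ventricles were taken 4 weeks after sham surgery or MI, and each of the 4 groups (sham and MI in wild type, sham and MI in the knockout) held 3 ventricles described as independent. Wild-type mice were 13 to 14 weeks old and knockout mice 15 to 16 weeks old, so genotype and age cannot be told apart.

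Miat is a long noncoding RNA that is not translated into protein and whose human counterpart was named after an association with myocardial infarction. In the weeks after a coronary artery is closed, the dead muscle is cleared by immune cells and replaced by a collagen scar laid down by activated fibroblasts, while the surviving ventricle remodels. In bulk ventricle, a change in the number of cells of a type and a change in RNA per cell cannot be told apart.

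On each array 82.6% to 88.1% of the spots that are not controls were well above background, and precision was limited by the number of arrays. Of 60930 probes, 52299 were tested. Only 15 of them could be paired with a gene symbol, which leaves 52284 that are given by probe ID or class. No probe for Miat was analysed here, and neither the knockout labels nor the cell makeup of the ventricles was checked against marker genes. The arrays fell into 2 sets by their recorded scan time. These sets are called slides here, and slide membership itself was not checked. Slide 1 held all MI arrays of both genotypes and knockout sham replicates 2 and 3, and slide 2 held knockout sham replicate 1 with the 3 arrays of wild-type sham, so neither the MI effect of wild type nor the whole difference lies within 1 slide. In wild type, MI and slide cannot be told apart, and this holds for every wild-type MI effect below. Every sham difference between genotypes below also mixes genotype with slide, since knockout sham replicates 2 and 3 were on slide 1. Within slides the genotypes can be set side by side after MI (slide 1) and after sham surgery (slide 2), the latter with knockout sham replicate 1 alone.

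Infarcted wild-type ventricles carried more Ppia, Actb and Tuba1b RNA than wild-type sham ventricles, whose arrays were on the other slide. In the knockout the means after MI lay slightly below those of sham. In wild type the MI effect was 2.29-fold for Ppia, 2.34-fold for Actb and 1.81-fold for Tuba1b, and in the knockout it was 0.854-fold, 0.906-fold and 0.959-fold. These 3 genes were the only ones of the 15 named genes whose MI effects differed between genotypes at an adjusted p under 0.05 (limma, Benjamini-Hochberg adjustment over all probes tested), which is 20% of the named genes against 3.75% of all probes. All of the named genes but 3 lie in the brightest quintile of probes, where 7.82% of probes were called, and the share among the named genes was not tested against it. The 12 other genes did not pass. None of the 3 passed under quantile normalization (limma adjusted p = 0.108 for Ppia, 0.0946 for Actb and 0.282 for Tuba1b), in the authors' values or with age as a covariate. With 1 array left out, Ppia passed in 5, Actb in 4 and Tuba1b in 1 of 12 fits.

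The promoters of Ppia and Tuba1b are shown because these genes were called and share 1 pattern over the groups, wild-type MI arrays above the other 9. The call favours this pattern but does not require or follow from it, since Gusb also had it and did not pass. They are the 250 bases before the RefSeq start of each gene in assembly GRCm38.p6, 5′ to 3′ on the strand of the gene, and 2 of the 3 genes were matched in that table. Capitals mark GC boxes (GGGCGG or its complement CCGCCC) and the TATA box (TATAAA, searched on both strands). Ppia lies on the forward strand at chr11:6415617-6415866 and Tuba1b on the reverse strand at chr15:98934391-98934640.
Ppia: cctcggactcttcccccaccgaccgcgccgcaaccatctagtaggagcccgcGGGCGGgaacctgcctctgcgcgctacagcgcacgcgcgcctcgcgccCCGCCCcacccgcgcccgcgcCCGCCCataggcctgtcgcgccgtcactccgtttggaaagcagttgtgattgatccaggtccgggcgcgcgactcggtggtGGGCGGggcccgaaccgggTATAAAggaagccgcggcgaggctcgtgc
Tuba1b: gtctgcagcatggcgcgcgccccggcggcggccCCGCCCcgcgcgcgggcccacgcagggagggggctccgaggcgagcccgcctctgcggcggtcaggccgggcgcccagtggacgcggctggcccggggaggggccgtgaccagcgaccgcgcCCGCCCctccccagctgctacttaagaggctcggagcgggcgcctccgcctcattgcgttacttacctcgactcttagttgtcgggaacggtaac
The Ppia window held 4 GC boxes and 1 TATA box, and its GC content was 72.4%. The Tuba1b window held 2 GC boxes, and its GC content was 75.6%. Neither window held CCAAT or TGANTCA on either strand. Of 32841 mouse promoter windows of this length, 32.75% held a GC box, 12.37% a TATA box, 33.86% CCAAT and 6.751% TGANTCA.

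Actb encodes beta-actin, a subunit of the actin filaments of non-muscle cells. Its level (log2 of the signal over the array's 75th percentile) was 4.13, 3.97 and 4.33 in wild-type sham replicates 1 to 3 and 5.12, 5.82 and 5.17 in wild-type MI. In the knockout it was 5.01, 4.53 and 4.43 after sham surgery and 4.45, 4.35 and 4.75 after MI. The wild-type MI arrays lay above all other 9, and the knockout sham and MI arrays overlapped. The MI effect was 1.23 (SE 0.21) in wild type and -0.14 (SE 0.21) in the knockout, with a 95% interval of -0.62 to 0.33 for the latter. Their difference was -1.37 (SE 0.30, 95% interval -2.04 to -0.70, limma adjusted p = 0.042). Of this difference, 62.3% came from the MI arrays, where the knockout was lower by 0.86, and 37.7% from the sham arrays, where the knockout value was higher by 0.52. Every knockout sham array lay above every wild-type sham array.

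Tuba1b encodes an alpha-tubulin, a building block of microtubules. Wild-type sham arrays read 6.15, 6.02 and 6.46 and wild-type MI arrays 6.96, 7.30 and 6.94 on the same log2 scale. Knockout sham arrays read 6.17, 6.50 and 6.58, and knockout MI arrays 6.27, 6.35 and 6.44. Again the wild-type MI arrays were apart from the other 9, and the knockout MI arrays lay inside the knockout sham range. The MI effects were 0.86 (SE 0.15) and -0.06 (SE 0.15), and the difference was -0.92 (SE 0.22, 95% interval -1.4 to -0.44, limma adjusted p = 0.047). The MI arrays gave 77.7% of it. Actb and Tuba1b both have close relatives in the genome. The probe sequences are not used here, so for these and the other named genes signal from any similar copies cannot be set apart.

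Of the 2 protein-folding genes, Ppia passed and Hsp90ab1 did not. Ppia encodes cyclophilin A, a prolyl isomerase that is also secreted. It read 5.89, 5.84 and 6.19 in wild-type sham and 6.996, 7.48 and 7.04 in wild-type MI. Its knockout sham values were 6.78, 6.22 and 6.15, and its knockout MI values were 5.84, 6.19 and 6.44. The wild-type MI arrays were above the other 9, of which knockout sham replicate 1, the knockout sham array on slide 2, was the highest. The difference of MI effects was -1.42 (SE 0.30, 95% interval -2.08 to -0.76, limma adjusted p = 0.038), with effects of 1.196 in wild type and -0.23 in the knockout (SE 0.21 each). The MI arrays gave 71.2% of this difference and the sham arrays 28.8%. Hsp90ab1, a cytosolic chaperone, had a difference of 0.06 (SE 0.16), and its sign turned with the scaling (-0.021 under median centring).

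**Figure D1:**
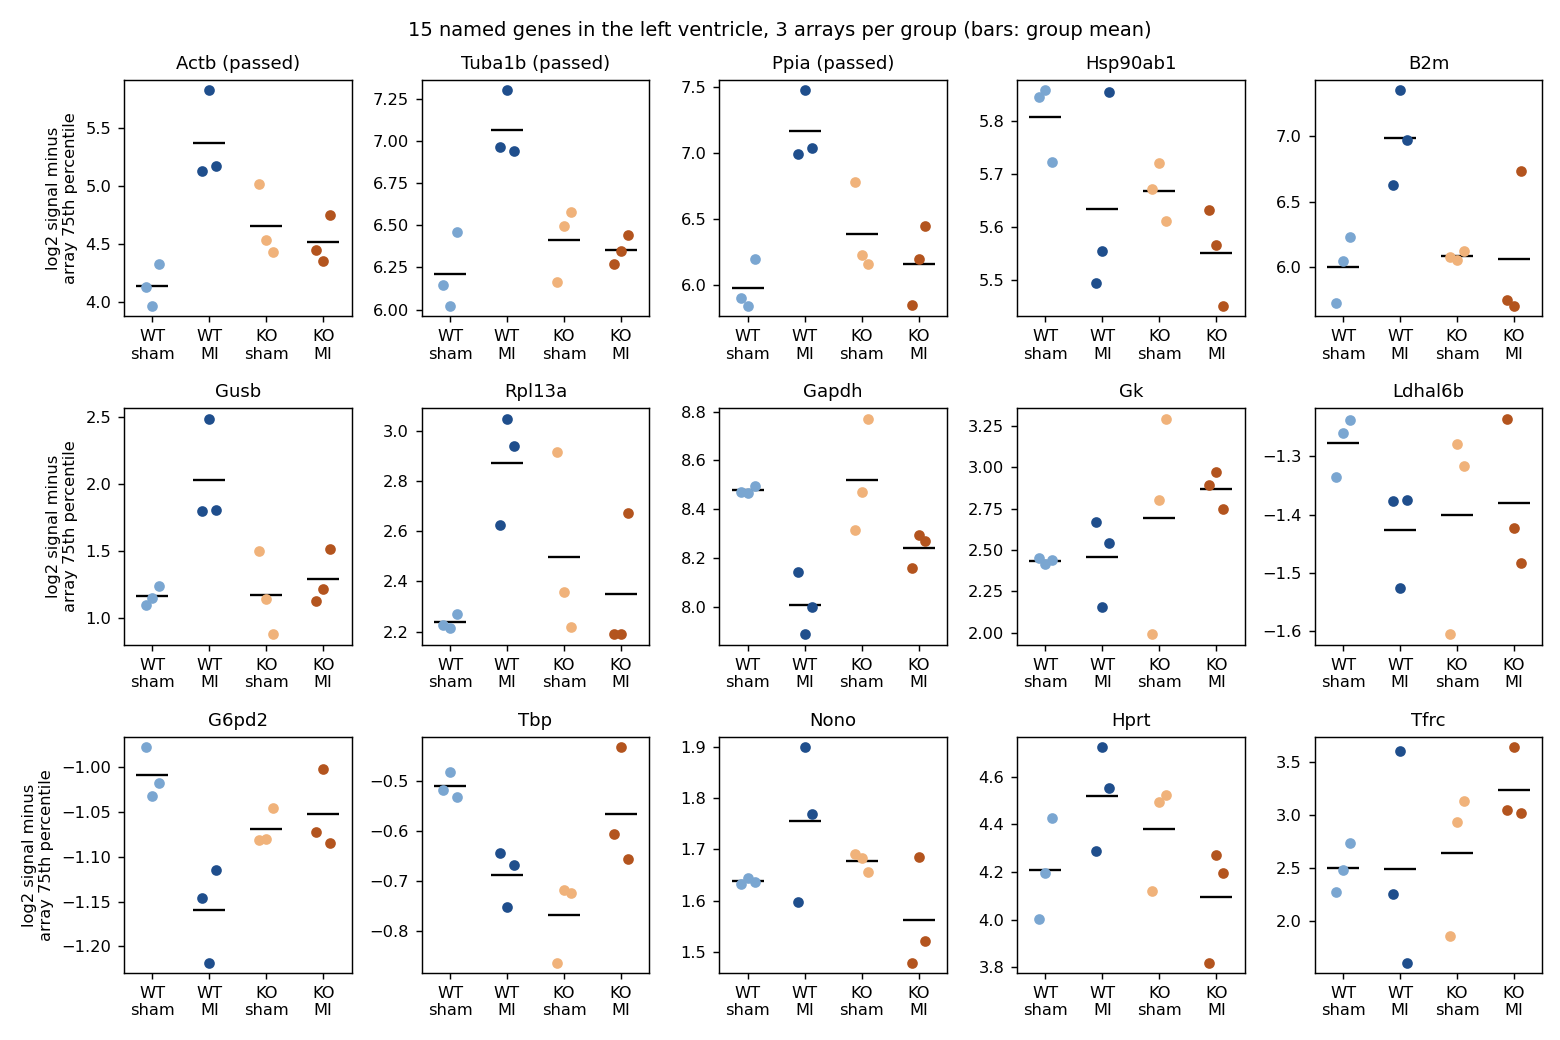
Log2 level over the array's 75th percentile (y axis, its own range in each panel) of the 15 named genes by group (x axis). Points are the 12 arrays and bars the means of 3. For Ppia, Actb and Tuba1b the 3 wild-type MI points lie above the other 9 and the knockout MI points lie among the sham points.

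The immune and lysosomal genes had differences of the same sign that did not pass. B2m, which encodes the small invariant chain of MHC class I, read 5.73, 6.05 and 6.23 in wild-type sham and 6.63, 7.35 and 6.97 in wild-type MI, against 6.07, 6.06 and 6.12 in knockout sham and 5.75, 5.70 and 6.74 in knockout MI. Knockout MI replicate 3 lay above knockout replicates 1 and 2 and inside the wild-type MI range. The difference was -1.01 (SE 0.38, limma adjusted p = 0.13), and without that array it was -1.34 (adjusted p = 0.039). Gusb, the lysosomal beta-glucuronidase, read 1.101, 1.15 and 1.24 in wild-type sham, 1.80, 2.48 and 1.80 in wild-type MI, 1.498, 1.14 and 0.88 in knockout sham and 1.13, 1.22 and 1.52 in knockout MI. Its wild-type MI arrays were above the other 9, and its difference was -0.75 (SE 0.29, limma adjusted p = 0.14), of which 98.8% came from the MI arrays.

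Rpl13a, a protein of the large ribosomal subunit, had a difference of -0.78 (SE 0.28, limma adjusted p = 0.11), with 2.91 in knockout sham replicate 1 against 2.36 and 2.22 in replicates 2 and 3. With slide in the fit its difference was -1.198 (limma adjusted p = 0.026). Hprt, an enzyme of purine salvage, had MI effects of 0.31 in wild type and -0.28 in the knockout and a difference of -0.60 (SE 0.25). Nono, a nuclear RNA-binding protein of paraspeckles, had a difference of -0.23 (SE 0.14). Tbp, the TATA-binding protein of the basal transcription machinery, was the named gene with a positive difference and the smallest p (0.38, SE 0.13, limma adjusted p = 0.11). It read -0.52, -0.48 and -0.53 in wild-type sham, -0.64, -0.75 and -0.67 in wild-type MI, -0.86, -0.72 and -0.72 in knockout sham and -0.61, -0.43 and -0.66 in knockout MI. The order of its groups turned over between the genotypes, and 67.7% of its difference came from the sham arrays.

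The energy metabolism genes gave small or imprecise differences. Gapdh, a glycolytic enzyme, had MI effects of -0.47 in wild type and -0.28 in the knockout (SE 0.12 each), a difference of 0.19 (SE 0.17, 95% interval -0.19 to 0.57). Its direction was the same in both genotypes, and the wild-type MI arrays lay below the other 9. Under quantile normalization the difference was 0.75 (limma adjusted p = 0.0434), and in the authors' values 0.81 (adjusted p = 0.0427). Control spots for mouse Gapdh had a difference of 0.33 near the 3′ end and 0.35 near the 5′ end. The gap between these probes had a difference of -0.02 on the log2 scale, and was 2.01 to 2.62 over the 12 arrays. The same gap for mouse Pgk1, another glycolytic enzyme, had a difference of -0.42 and was 7.97 to 8.58. The RNA was amplified by random priming, so these gaps are not read as a measure of RNA breakdown. Their part in the results was not tested. Gk, glycerol kinase, had a difference of 0.15 (SE 0.37) and Tfrc, the transferrin receptor for iron uptake, one of 0.60 (SE 0.66). G6pd2 and Ldhal6b, related to glucose-6-phosphate and lactate dehydrogenase, had differences of 0.17 each (SE 0.11 and 0.16). Over all 15 named genes, 8 differences were negative and 7 positive, with a median of -0.23 against 0.03 over all probes tested and -0.30 over the brightest quintile, where 12 of these genes lie.

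Among called probes the same form was common: an MI effect in wild type with no counterpart, or the opposite sign, in the knockout. The call favours this form, so it describes the calls and does not test them. Of 52299 probes, 1961 (3.75%) were called, 842 with a positive difference (1.61%) and 1119 with a negative one (2.14%). At an unadjusted p under 0.05 there were 13796 probes (26.4%). The calls lay close to the threshold, with limma adjusted p-values of 0.0258 to 0.04995 and 907 of them over 0.04. Among positive calls the median MI effect was -0.71 in wild type and 0.22 in the knockout. Among negative calls the medians were 0.85 and -0.25. The balance of directions depended on the scaling: quantile normalization gave 572 positive and 333 negative calls, the authors' values 583 and 340, median centring 605 and 1485 and normexp background correction 1178 and 3309.

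**Figure D2:**
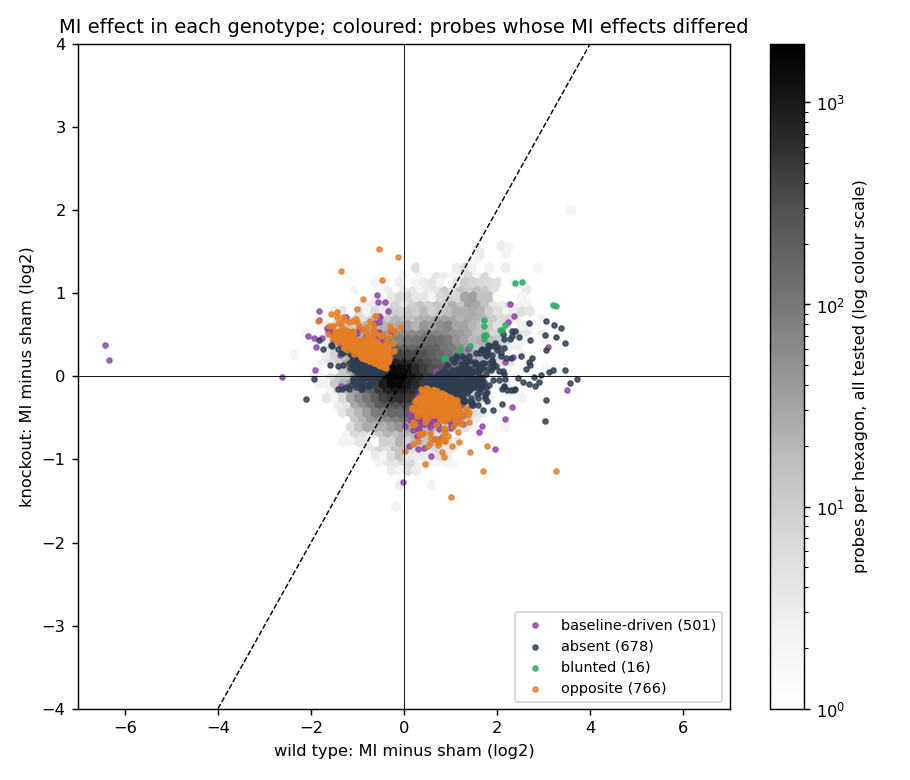
MI effect in the knockout (y axis, log2) against MI effect in wild type (x axis, log2) for the tested probes, with the 1961 called probes coloured by response class, the rest as grey hexagons shaded by number and a dashed line at equal effects. The called probes spread along the wild-type axis, with knockout effects near 0 or of opposite sign.

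The calls were sorted by their 4 group means. A call was baseline-driven where the genotypes differed more in sham than after MI. Otherwise it was absent where the knockout effect was under 0.25 of the wild-type effect in size, opposite where the signs differed, and blunted or amplified where the sign was shared and the knockout effect was smaller or larger. The names describe means and not a test of each effect, and the classes use the values that chose the calls. By this rule 766 calls (39.1%) were opposite, 678 (34.6%) absent, 501 (25.5%) baseline-driven, 16 (0.816%) blunted and 0 amplified. With slide as a fixed block the order turned over, with 3218 baseline-driven, 994 absent, 252 opposite and 47 blunted of 4514 calls. On the knockout side the sham difference between genotypes then rested on replicate 1 alone, and it enters the difference of MI effects. Over all tested probes the shares in the fit without slide were 18.3% opposite, 27.04% absent, 30.8% baseline-driven, 20.02% blunted and 3.87% amplified. The borders were not sharp: 473 calls had a sham difference of 0.8 to 1.25 times the MI difference in size, and 314 had a knockout effect of 0.2 to 0.3125 times the wild-type effect. At the border of baseline-driven, probe ASMM10P043965 had a sham difference of 0.444 and an MI difference of -0.443, and just outside it ASMM10P052481 had 0.435 and -0.435. At the border of absent, ASMM10P022366 had effects of 0.65 in wild type and -0.16 in the knockout, and just outside it ASMM10P006754 had 0.82 and -0.21.

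Absent responses were more often RNAs that were higher in infarcted than in sham wild-type ventricles, as were the calls as a whole. Negative differences made up 418 of the 678, against 1119 of all 1961 calls, a balance that depended on the scaling. The 418 had median MI effects of 1.14 in wild type and -0.08 in the knockout. Set against the wild-type sham mean, the median level of these 418 probes was 1.01, 1.42 and 1.05 in wild-type MI replicates 1 to 3. It was 0.08, 0.10 and 0.31 in knockout MI, 0.28, 0.24 and 0.14 in knockout sham and -0.10, -0.05 and 0.12 in wild-type sham. All 3 wild-type MI arrays stood apart, replicate 2 the furthest. The 260 positive ones had median effects of -0.76 and 0.10, with wild-type MI at -0.66, -0.93 and -0.67 and knockout MI at -0.21, -0.05 and -0.26. Probe ASMM10P054189 had the largest negative difference among calls outside the baseline-driven class with signal well above background on every array. It read -1.36, 0.44 and -1.18 in wild-type sham, 2.82, 3.93 and 2.33 in wild-type MI, -2.65, -2.73 and -2.59 in knockout sham and -2.80, -2.55 and -2.69 in knockout MI. Its difference was -3.75 (SE 0.65, limma adjusted p = 0.0289). Its knockout arrays, all between -2.80 and -2.55, lay below every wild-type array of either surgery.

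Opposite responses were nearly even in direction, at 404 positive and 362 negative. In the positive ones the median effects were -0.69 in wild type and 0.30 in the knockout, and in the negative ones 0.73 and -0.33. The knockout arm was the smaller in both. The median level of the positive ones, set against wild-type sham, was -0.53, -0.39 and -0.17 in knockout sham and -0.12, 0.02 and -0.20 in knockout MI. Knockout sham replicate 3 thus reached the knockout MI range, and the knockout sham arrays lay between the wild-type sham and wild-type MI arrays. The negative ones gave 0.43, 0.36 and 0.34 in knockout sham against -0.08, 0.02 and 0.20 in knockout MI, with no overlap. The sham difference between genotypes, with a median of -0.37 in the positive and 0.39 in the negative ones, made up part of these responses also. Probe ASMM10P051821 had the largest positive difference among calls outside the baseline-driven class and well above background on every array, at 2.51 (SE 0.58, limma adjusted p = 0.0448). It read -0.76, -0.83 and -0.77 in wild-type sham and -2.09, -2.92 and -2.89 in wild-type MI. Its knockout sham arrays spread widely, at -2.86, -1.98 and -1.002, and overlapped the knockout MI arrays at -1.25, -0.83 and -1.76.

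Baseline-driven responses were those whose sham arrays differed more between genotypes than their MI arrays. Knockout sham replicates 2 and 3 were not on the slide of wild-type sham, so genotype and slide are mixed in this sham difference. There were 323 negative and 178 positive ones. In the negative ones the median sham difference was 0.61, against -0.37 after MI, so knockout sham arrays (0.71, 0.55 and 0.51 over wild-type sham) sat about as high as wild-type MI arrays (0.57, 0.65 and 0.72). Knockout MI arrays were lower, at 0.17, 0.22 and 0.42. The positive ones mirrored this, with a median sham difference of -0.54. Knockout sham and wild-type sham arrays did not overlap in 498 of the 501, against 31.8% of all probes tested, which the rule for this class favours. In the negative ones the highest of the 3 knockout sham arrays was replicate 1, which shared slide 2 with wild-type sham. What part slide had in this class was not tested. Probe ASMM10P046283 had the largest positive difference of this class, 6.80 (SE 0.67, 95% interval 5.32 to 8.29, limma adjusted p = 0.0258). It was high on the 3 wild-type sham arrays (6.82, 4.47 and 5.61) and between -1.52 and -0.37 on all other 9. Probe ASMM10P042304 had a difference of -3.66 (SE 0.88, limma adjusted p = 0.0485), with -2.55, -3.42 and -4.07 in wild-type sham and 0.14, -0.16 and 0.46 in wild-type MI. Its knockout sham arrays ranged from -2.80 to 0.13 and enclosed its knockout MI arrays.

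**Figure D3:**
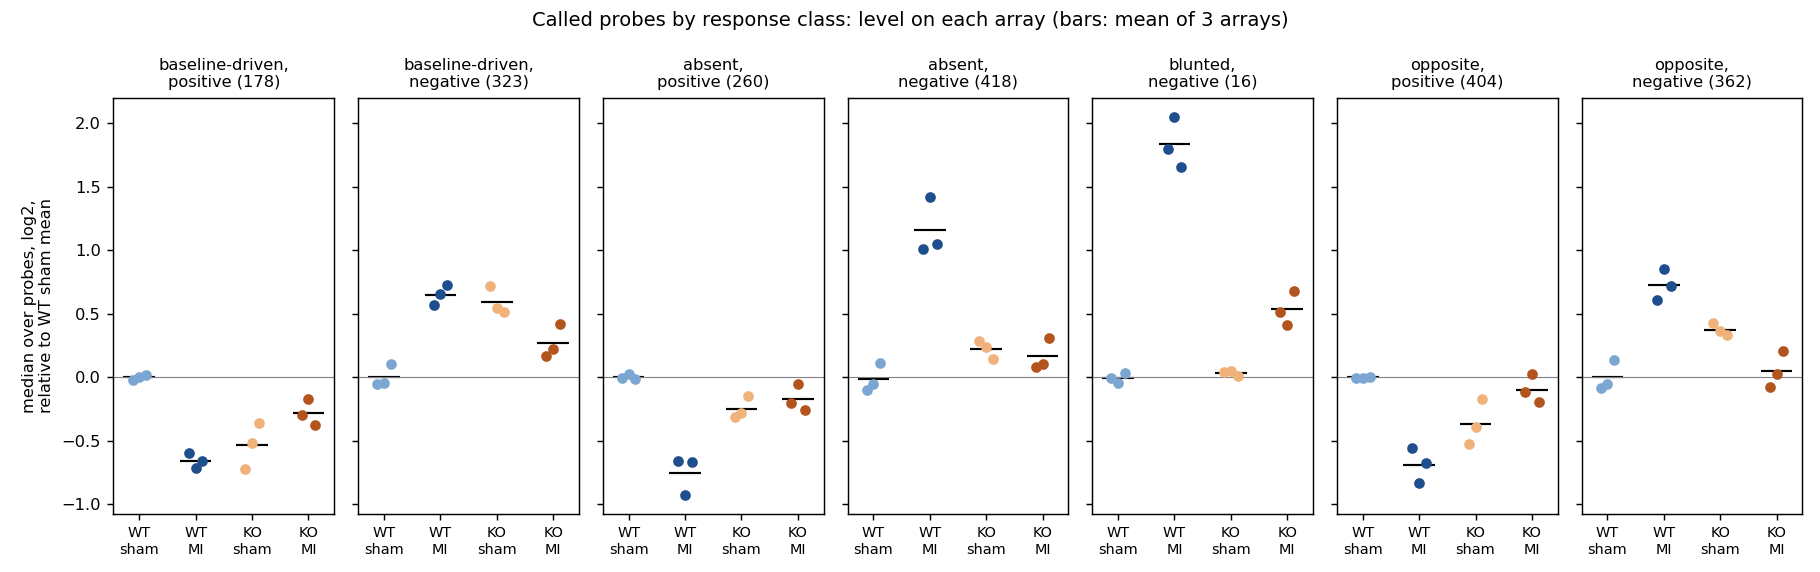
Median log2 level relative to the wild-type sham mean (y axis) of the called probes of each response class and direction, 1 point per array, by group. In the absent class the wild-type MI arrays stand apart; in the baseline-driven class the knockout sham arrays lie with the wild-type MI arrays.

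Blunted responses, in which the knockout moved the same way as wild type but less, were rare. All 16 were negative differences, with median MI effects of 1.75 in wild type and 0.56 in the knockout. Their median level over wild-type sham was 1.80, 2.05 and 1.66 in wild-type MI, 0.51, 0.41 and 0.68 in knockout MI and 0.01 to 0.05 in knockout sham. Knockout MI and knockout sham arrays did not overlap in 13 of them, against 16.7% of all probes tested. The rule for this class favours such a gap.

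Which group stood apart was counted for each call. The 3 wild-type MI arrays lay above or below the other 9 in 1032 of 1961 calls (52.6%), against 23.9% of all probes tested. The wild-type sham arrays did so in 522 calls (26.6%, against 4.57%), the knockout sham arrays in 57 (2.91%, against 6.82%) and the knockout MI arrays in 45 (2.29%, against 1.08%). Wild-type MI and sham arrays did not overlap in 1925 calls (98.2%, against 51.3%), and knockout MI and sham arrays in 643 (32.8%, against 16.7%). Between genotypes the sham arrays did not overlap in 1407 calls (71.7%, against 31.8%) and the MI arrays in 1806 (92.1%, against 46.0%). The call itself favours such patterns, so these shares describe it and do not test it.

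Probes whose IDs name long intergenic noncoding RNAs (lincRNAs), transcripts that lie between protein-coding genes, gave mostly positive differences. Of 1365 such probes in 3 classes, 44 were called (3.22%, close to the 3.75% of all probes), 35 positive and 9 negative. The median difference of all 1365 was 0.21, against 0.03 over all probes. Their median level was -2.11, which lies in quintile 2 of all probes by signal, counted from the dimmest. In that quintile the median difference was 0.08, with 163 positive and 94 negative calls. The lincRNA probes were not tested against it. Human-named probes gave 20 positive and 7 negative calls of 816, mouse-named probes 13 and 1 of 480, and lincRNA exon probes 2 and 1 of 69. In the 35 positive calls the median level over wild-type sham was -0.58, -0.79 and -0.57 in wild-type MI, -0.17, 0.01 and -0.21 in knockout MI and -0.35, -0.30 and -0.17 in knockout sham. The wild-type MI arrays were thus the lowest. Of the 44 calls 23 were opposite, 17 absent and 4 baseline-driven. Positive calls also led under quantile normalization (19 to 5), median centring (25 to 17) and in the authors' values (19 to 5), but normexp gave 40 positive and 48 negative and a median difference of -0.01.

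The sign of the difference moved with signal level. In the brightest quintile of probes the median difference was -0.30, with median MI effects of 0.13 in wild type and -0.12 in the knockout, and 687 negative and 131 positive calls were made there. In the other 4 quintiles, from the dimmest upwards, the medians were 0.02, 0.08, 0.11 and 0.10. This pattern differed between scalings. Quantile normalization gives every array the same distribution of values, which leaves little room for such a shift. Quantile normalization gave a median difference of 0.03 in the brightest quintile with 251 positive and 49 negative calls, and the authors' values gave 0.03 with 256 and 50. Median centring gave -0.38 and normexp -0.25. Ppia, Actb and Tuba1b stayed negative in each of these scalings, at -0.90, -0.93 and -0.30 under quantile normalization, where none of them passed.

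**Figure D4:**
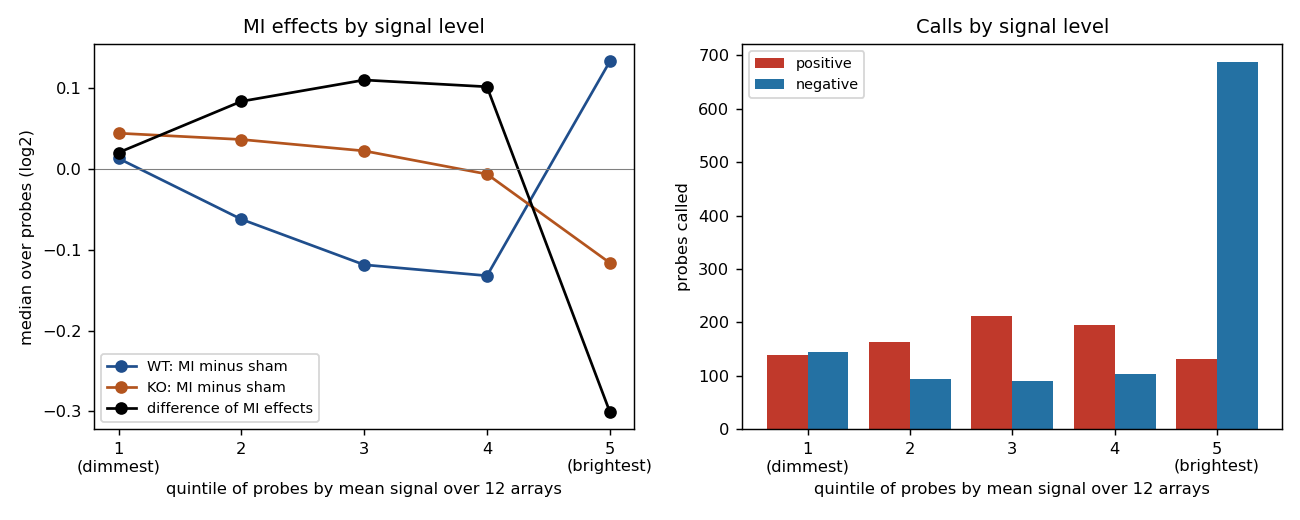
Left, median MI effect in each genotype and their difference (y axis, log2) by quintile of mean signal (x axis); right, number of positive and negative calls in each quintile. The brightest quintile has a median difference of -0.30 and 687 negative calls; under quantile normalization this median was 0.03 with 49 negative calls.

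The number of calls moved widely when single arrays were left out, and the reason was not tested. Without knockout sham replicate 2 limma called 0 probes (smallest adjusted p 0.0793, 11229 at an unadjusted p under 0.05). Leaving out knockout MI replicate 1 gave 5 calls and replicate 2 gave 1. Leaving out wild-type sham replicate 1, 2 or 3 gave 1, 53 and 391 calls. The count was 1244 when wild-type MI replicate 2 was dropped and 3143 when knockout sham replicate 3 was. At an adjusted p under 0.1, a limit chosen after the data were seen, 6905 probes were called, and 930 to 9335 when 1 array was left out. With age as a covariate limma called 0 (smallest adjusted p 0.119, 9765 at an unadjusted p under 0.05). As single values the gene differences moved less. Over the 12 fits with 1 array left out Ppia ranged from -1.57 to -1.22, Actb from -1.495 to -1.15 and Tuba1b from -1.04 to -0.80.

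**Figure D5:**
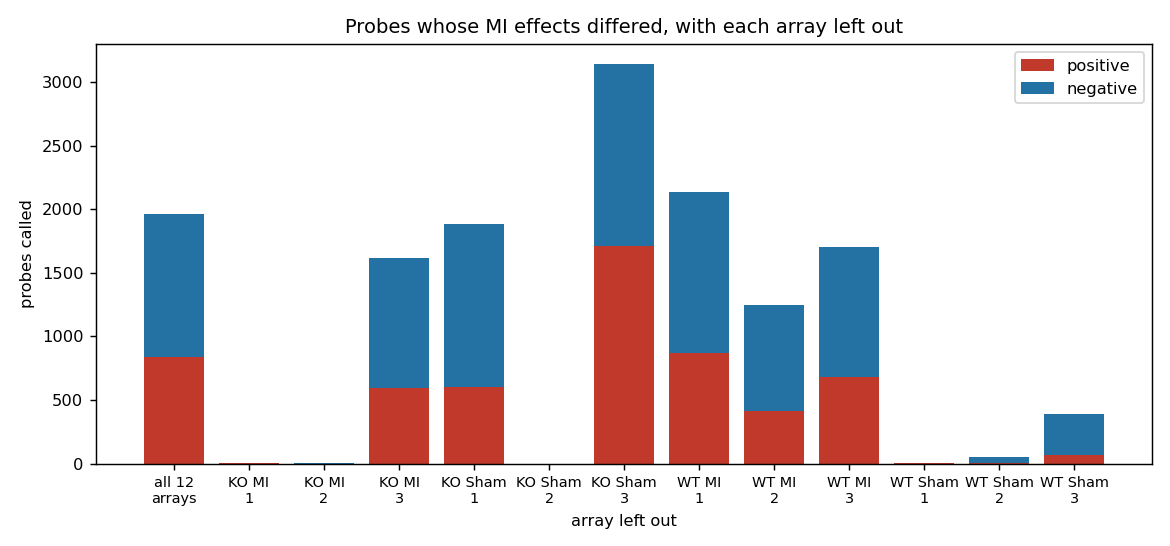
Number of probes called for the difference of MI effects (y axis) with all 12 arrays and with each array left out in turn (x axis). The count is 1961 with all arrays and ranges from 0 without knockout sham replicate 2 to 3143 without knockout sham replicate 3.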

How the data were processed

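RNA from 12 mouse left ventricles was freed of ribosomal RNA, amplified by random priming and labelled with Cy3, per the labels' protocols. Scanner output as deposited gives linear spot intensity and quality flags (other units); Agilent Feature Extraction 11.0.1.1 is named in the submitters' processing notes. The range of the authors' deposited table of processed values fits a log2 scale, each of its columns has a median of 6.91, and the sources used here do not give its normalization or centring.

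Signals were taken as log2, the 75th percentile of the array (non-control spots, flagged outliers left out) was subtracted, and values were averaged over the spots of a probe. Of 60930 probes, 52304 exceeded background clearly on the 3 arrays of at least 1 group, and 5 negative controls were dropped. A group-means model over all 12 arrays was fitted with limma 3.58.1 (lmFit, eBayes) in R 4.3.3, with Benjamini-Hochberg adjustment over 52299 probes and calls at an adjusted p under 0.05. The fit was checked on simulated data. Figures used matplotlib 3.10.9. The p-values set each difference against the spread between ventricles within groups, pooled over the groups and moderated by eBayes. Wild-type sham, wild-type MI and knockout MI each lie within 1 slide, so their spread holds no difference between slides.

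All 15 genes the files pair with an accession are named, through a RefSeq table of GRCm38.p6. Of the unnamed probes, at most 2 per direction are named: the largest difference among baseline-driven calls and among the others, well above background on all 12 arrays. Probes at the borders of classes are named as well. Planned gene lists and cell type markers could not be run, since their probes are unnamed here. Members and lists were chosen with earlier results of these data known. Alternatives were other scalings and background correction (normexp with an offset of 50, on the median spot signal), filters, array weights, age, slide and replicate terms, other class limits and leaving out each array.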

Additional observations from a re-analysis of the deposited data

Results flagged for a closer look

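The MI effect differed between the genotypes, by the test of that difference itself, for 1961 probes in all. Among the named genes this held for Ppia (-1.42), Actb (-1.37) and Tuba1b (-0.92), each with a wild-type effect above the knockout effect. Among the named probes it held for ASMM10P046283 (6.80), ASMM10P051821 (2.51), ASMM10P042304 (-3.66) and ASMM10P054189 (-3.75). The gene and probe values are log2 differences, and each had a limma adjusted p under 0.05.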

How the results depend on the processing

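Counts of calls are given as total, positive and negative, then baseline-driven, absent, blunted, opposite and amplified; with all arrays they were 1961, 842 and 1119, then 501, 678, 16, 766 and 0, and 3 named genes were called. Quantile normalization gave 905, 572 and 333, then 167, 344, 2, 391 and 1, with 1 named gene, and shared 771 calls. The authors' values gave 923, 583 and 340, then 171, 350, 2, 398 and 2, with 1 named gene. Normexp gave 4487, 1178 and 3309, then 1378, 1591, 25, 1492 and 1, while shifting the median difference of all probes from 0.03 to -0.10. Median centring left 8 blunted calls. No filter on dim probes gave 784, 277 and 507, then 204, 255, 2 and 323. Array weights estimated gene by gene gave 13503, 6502 and 7001, then 4181, 4679, 625, 3938 and 80, with 5 named genes. Slide as a fixed block gave 4514, 2519 and 1995, with 3218 baseline-driven, 47 blunted, 252 opposite and 3 amplified; slide as a random block gave 788 baseline-driven and 1 amplified. Age as a covariate gave 0 in each count in limma (9765 at an unadjusted p under 0.05), named genes included. A difference of at least 1 left 1045, 353 and 692, then 220, 400 and 412 for baseline-driven, absent and opposite. An adjusted p under 0.1, chosen after seeing the data, gave 6905, 3361 and 3544, then 1604, 2788, 106, 2403 and 4. An absent limit of 0.5 gave 1200 absent, 0 blunted and 260 opposite, and a baseline limit of 2 gave 146 baseline-driven. Leaving out 1 array gave 0 to 3143 calls, 0 to 1711 positive, 0 to 1432 negative, 0 to 1328 baseline-driven, 0 to 960 absent, 0 to 34 blunted, 0 to 1199 opposite, 0 to 7 amplified and 0 to 3 named genes. Except for the class limits and thresholds, the cause was not tested.

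The labels state no pairing of the arrays by replicate number. The deviations of same-numbered arrays of different groups correlated at -0.34 to 0.34, over 0.1 in 6 of 18 pairs. With 3 arrays per group these values can neither show nor exclude a pairing. With the replicate number as a block limma gave 102 calls, 9 positive and 93 negative, then 22 baseline-driven, 40 absent, 0 blunted and 40 opposite, with 0 named genes. Among single genes, Hsp90ab1 turned sign to -0.021 under median centring and -0.014 without wild-type MI replicate 1 (up to 0.17 with other arrays left out), and Gk to -0.16 with gene-by-gene weights and -0.20 without knockout sham replicate 1 (up to 0.45 with other arrays left out); neither passed in any fit. From the dimmest to the brightest quintile, 2.71%, 2.46%, 2.90%, 2.87% and 7.82% of probes were called.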

Other observations

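Control probes named for external and viral sequences were outside the fit. Whether matching RNA was added to the samples was not checked, so signal from mouse RNA cannot be set apart. Over the 12 of these (ERCC and E1A names) with signal well above background throughout, the difference of MI effects ranged from -0.35 to 0.74 on the log2 scale, with a median of 0.15 and 7 positive. Control spots for mouse Pgk1 had a difference of -0.02 near the 3′ end and 0.40 near the 5′ end. The part of these values in the results was not tested.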
